A study of Mus musculus with 12 samples.

Results

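The anoctamins are a family of membrane proteins that respond to calcium, and 6 of the 10 anoctamin genes in the count table, Ano1, Ano5, Ano6, Ano8, Ano9 and Ano10, were described here across 12 libraries of mouse corneal endothelium. The 6 were taken by gene symbol, as family members known as chloride channels or lipid scramblases, from a table of 32761 genes. The rule names no measured value, but the late genotype difference of these data was known when the 6 were picked. They are therefore treated as selected on the late difference, which is given as values with no p-value. All 6 passed the filter on low counts, and of the other 4 anoctamins Ano3, Ano4 and Ano7 passed and Ano2 did not. Ano9 passed on its wild-type libraries, since its mutants held almost no reads.

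Anoctamins span the membrane many times and most work as dimers. Some let chloride through when cytosolic calcium rises, others move phospholipids between the leaflets of a membrane, and several sit in internal membranes. The corneal endothelium lines the back of the cornea and keeps it clear by moving ions, and water with them, out of the stroma, so chloride transport is part of its daily work.

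The study compared mice homozygous for Col8a2 Q455K with wild-type mice. Col8a2 encodes a collagen chain of Descemet membrane, and the substitution is used as a mouse model of Fuchs endothelial corneal dystrophy, a disease in which endothelial cells are lost. Each of the 4 groups, early mutant, early wild type, late mutant and late wild type, had 3 biological replicates. Early mice were up to 2 months old and all their libraries were batch 1, and late mice were at least 8 months old and all theirs were batch 2, so the effects of age and of batch cannot be told apart. The labels give neither the background strain nor the number of animals behind a library.

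Total counts per library ran from 19722598 to 39431676, at which 3 counts stand for 0.0761 to 0.152 CPM, counts scaled to library size. Levels of 1 gene across libraries are given as CPM after TMM scaling, and levels of different genes are compared only as FPKM, which divides by gene length. All 14 corneal endothelial markers searched, among them Slc4a11, Aqp1 and Col8a1, were present in every group, with a summed level of 7902 to 16136 CPM. Late, 1 of the 14 was called higher in mutants (Car12) and 1 lower (Atp1b1, a sodium pump subunit), 5 of 14 lay above 0 and the median log2 fold change was -0.45. Early, 0 were called and the median was 0.22. Transcripts of neighbouring cell types were present too. The 11 keratocyte markers summed to 18865 to 32503 CPM, most of it Dcn, at group means of 19459 to 23643 CPM. Of the 11, 4 were called higher and 0 lower in early mutants (median log2 fold change 1.18), and 5 higher and 1 lower in late mutants (median 1.12). The 14 macrophage markers summed to 468 to 570 CPM in late mutants against 48.1 to 76.2 in late wild type and to 296 to 655 against 41.5 to 72.0 early. In bulk RNA, fewer cells of a type and less RNA per cell cannot be told apart.

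The sequences upstream of Ano1 and Ano5 are shown because they were the 2 members with no overlap between the late genotypes, in opposite directions. Each run is the 250 bases before the annotated start of the gene on its own strand, 5′ to 3′, from RefSeq on GRCm38.p6. For Ano1 it is chr7:144738574-144738823 on the minus strand and for Ano5 chr7:51510779-51511028 on the plus strand. Capitals mark matches to the motifs searched.
Ano1: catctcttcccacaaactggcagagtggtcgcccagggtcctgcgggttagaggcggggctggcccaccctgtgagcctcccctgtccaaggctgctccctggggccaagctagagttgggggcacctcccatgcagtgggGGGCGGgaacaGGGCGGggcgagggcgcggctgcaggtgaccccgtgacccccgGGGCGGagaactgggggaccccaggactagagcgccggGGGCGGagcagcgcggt
Ano5: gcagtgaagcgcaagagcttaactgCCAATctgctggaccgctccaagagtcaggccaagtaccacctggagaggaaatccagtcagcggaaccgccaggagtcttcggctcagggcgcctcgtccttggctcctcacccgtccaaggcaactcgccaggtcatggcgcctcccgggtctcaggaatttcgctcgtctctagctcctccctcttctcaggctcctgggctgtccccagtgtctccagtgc

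Over 300 bases, which adds the 50 bases after the start, 7 short motifs were searched on both strands: the GC box GGGCGG, the TATA box TATAAA, the CCAAT box CCAAT, the AP-1 site TGANTCA, the cyclic AMP element TGACGTCA, the STAT site TTCNNNGAA and the E-box CACGTG. The Ano1 window held the GC box 4 times, beginning 109, 98, 55 and 17 bases before the start, and none of the other motifs. The Ano5 window held 1 CCAAT box, beginning 225 bases before the start, and none of the others. Of 32851 promoters of that length, 35.7% held a GC box, 13.6% a TATA box, 37.4% a CCAAT box, 7.81% an AP-1 site, 1.79% a cyclic AMP element, 8.30% a STAT site and 7.15% an E-box. The Ano1 window was 71.7% G or C with 18 CG steps and the Ano5 window 60.7% with 15, against medians of 52.7% and 7 over all promoters. Of the other 4 members Ano6 and Ano10 had an entry, with 3 and 5 GC boxes, and none of the other motifs was found in their windows. A match is a description of the letters and not a site of binding.

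Per length, the scramblase-type genes Ano10 and Ano6 made up most of the family's transcript in every library. Ano10, which resides largely in internal membranes and whose human counterpart is mutated in a recessive ataxia, was above Ano6, the plasma membrane scramblase lost in Scott syndrome, in 12 of 12 libraries. Together they held 82.5% to 95.7% of the summed FPKM of the 10 anoctamins, a sum that lay between 11.4 and 22.4 FPKM. The order of the other members depended on the group. In early wild type Ano10 stood at 8.44 FPKM, Ano6 at 5.01, Ano5 at 0.726, Ano1 at 0.166, Ano8 at 0.0955 and Ano9 at 0.0894. The libraries of Ano1 and Ano8 overlapped there, as did those of Ano8 and Ano9. In late wild type the order was Ano10 at 7.35, Ano6 at 4.80, Ano5 at 1.27, Ano8 at 0.142, Ano9 at 0.115 and Ano1 at 0.0517 FPKM. There the neighbours Ano10 and Ano6 overlapped, as did each pair of neighbours among Ano8, Ano9 and Ano1.

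In mutants Ano1 and Ano5 stood closer together early and changed places late. Early mutants held Ano10 at 9.63 FPKM, Ano6 at 5.91, Ano5 at 0.245, Ano1 at 0.170, Ano8 at 0.0919 and Ano9 at 0.0216, and only the libraries of Ano5 and Ano1 overlapped between neighbours. Late mutants held Ano10 at 9.93, Ano6 at 5.97, Ano1 at 0.895, Ano5 at 0.310, Ano8 at 0.286 and Ano9 at 0.00328 FPKM, and only Ano5 and Ano8 overlapped between neighbours. The ratio of Ano5 to Ano1 in FPKM was 21.2, 30.4 and 22.5 in late wild-type replicates 1 to 3 and 0.323, 0.616 and 0.0650 in late mutant replicates 1 to 3. It was 31.2, 2.23 and 3.88 in early wild type and 1.62, 0.819 and 1.86 in early mutants. Ano5 therefore exceeded Ano1 in all 6 wild-type libraries and in no late mutant library. These ratios use the same late libraries as the choice of members and are given without a test. The stacked bars show the sum and its parts for every library.

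**Figure D1:**
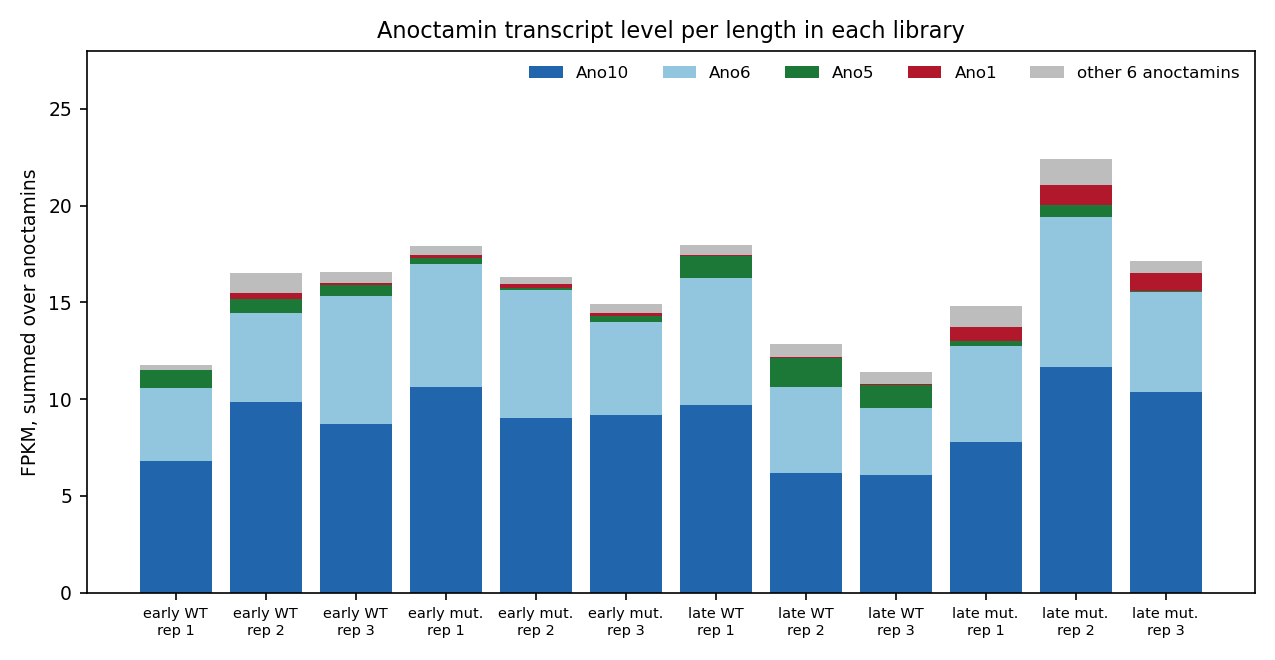
FPKM of the 10 anoctamin genes stacked for each of the 12 libraries, with Ano10, Ano6, Ano5 and Ano1 in colours and the other 6 genes in grey. Ano10 and Ano6 fill 82.5% to 95.7% of every bar, the Ano5 segment is tallest in late wild type, and the Ano1 segment is tallest in the 3 late mutant libraries.

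Ano1 encodes the calcium-activated chloride channel of secretory epithelia, smooth muscle and pacemaker cells. In late mutants it stood at 4.23, 4.64 and 4.86 CPM in replicates 1, 2 and 3, from 123, 156 and 150 counts. In late wild type it stood at 0.262, 0.321 and 0.311 CPM, from 8 counts in each library. The groups did not overlap, with 4.58 ± 0.319 CPM in mutants (SD, n = 3) against 0.298 ± 0.031 in wild type. The wild-type level rests on 24 counts in all, so its small SD does not show a low spread. The fitted late difference was a log2 fold change of 3.93 ± 0.68 (SE), or 15.2-fold higher in mutants. It ranged from 3.85 to 4.01 over the 19 alternatives of processing or left-out libraries in which Ano1 was fitted.

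At the early stage Ano1 showed no such separation. Early mutants held 1.01, 0.929 and 1.02 CPM, and early wild type 0.187, 1.54 and 0.722 CPM, from 5, 35 and 28 counts. The wild-type libraries lay on both sides of the mutants, so the groups overlapped. The log2 fold change was 0.28 ± 0.61 (adjusted p = 0.867), and 2 SE on either side run from -0.93 to 1.5. It was 1.09 without early wild-type replicate 2 and -0.16 without early wild-type replicate 1, so its size and sign rest on single libraries. The late difference exceeded the early one by 3.64 ± 0.89 on the log2 scale, a value that contains the late difference and is given without a p-value. D930030F02Rik, a gene that overlaps Ano1 in the reference, did not exceed a group mean of 0.152 CPM.

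Within mutants Ano1 was 4.62-fold higher late than early (log2 fold change 2.21 ± 0.62, adjusted p = 0.715), and the 6 libraries did not overlap. Within wild type it was lower late by a log2 fold change of -1.43 ± 0.65 (adjusted p = 1.00), with overlapping libraries. Neither comparison passed the threshold. Both use late libraries that the choice of members used, and both set batch 1 against batch 2. Several marker lists were also higher in late mutants than in late wild type. The lens markers summed to 257 to 407 CPM against 104 to 185, with 3 of 14 tested genes called higher, 1 of the 16 listed at 0 in all late mutant and 3 in all late wild-type libraries. The trabecular meshwork markers summed to 934 to 1334 CPM against 159 to 348, with 4 of 6 tested genes called higher. Most of that sum was Angptl7, at means of 808 against 178 CPM, a gene also on the keratocyte list. Of the macrophage list 11 of 14 were called higher, and of the keratocyte list 5 of 11. Photoreceptor markers overlapped late in their sum, at 148 to 364 CPM in mutants against 180 to 239 in wild type. Of 15 tested, 14 lay above 0 late (median log2 fold change 1.34), with 0 called higher and 1 lower. Early their sum was 233 to 434 CPM in mutants against 93.1 to 219 in wild type, with 3 of 15 called higher (median 2.09). Smooth muscle markers, from a tissue rich in Ano1, did not move as a list in 1 direction. Their sum of 285 to 320 CPM against 219 to 268 was carried by Acta2, at 236 against 151 CPM, while the median log2 fold change was -0.38 and 3 of 8 tested genes lay above 0. Of the 8, 0 were called higher and 1 lower, 2 of the 10 listed at 0 in all late mutant libraries and 1 in all late wild-type libraries. The part of these transcripts in the Ano1 values was not tested.

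Ano5 encodes a protein of internal membranes in muscle and bone, and its loss in people causes a limb-girdle muscular dystrophy in which membrane repair is impaired. In early mutants it stood at 2.35, 1.09 and 2.72 CPM in replicates 1, 2 and 3, and in early wild type at 8.38, 4.92 and 4.02 CPM. All early mutant libraries lay below all early wild-type libraries. The early log2 fold change was -1.49 ± 0.56, a 2.81-fold lower level in mutants, and did not pass the threshold over all genes (adjusted p = 0.435 by edgeR's quasi-likelihood test). In the authors' deposited table the early log2 fold change of Ano5 was -1.53 with a q-value of 0.0793. It was not called early in any of 20 alternatives, where its log2 fold change ran from -1.73 to -1.10 and its adjusted p from 0.089 to 0.890.

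Late mutants held 1.96, 4.11 and 0.453 CPM of Ano5, from 57, 138 and 14 counts. Late wild type held 8.00, 14.0 and 10.02 CPM, from 244, 349 and 258 counts. The groups did not overlap, but the late mutants spread widely, with a mean of 2.17 ± 1.84 CPM against 10.7 ± 3.06. The fitted log2 fold change was -2.29 ± 0.57, or 4.89-fold lower in mutants. It was -1.71 without late mutant replicate 3, the lowest library, -3.04 without late mutant replicate 2, the highest of the mutants, and -3.43 by limma-voom with sample weights. The late and early log2 fold changes of Ano5 differed by -0.80 ± 0.77. Between stages Ano5 differed by 0.89 ± 0.54 in wild type (adjusted p = 1.00) and by 0.09 ± 0.55 in mutants (adjusted p = 0.995), on the log2 scale.

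Skeletal muscle markers, from a tissue rich in Ano5, overlapped between genotypes. Their sum was 12.5 to 78.5 CPM in late mutants and 4.49 to 47.4 in late wild type, and 11.5 to 40.9 against 12.3 to 29.2 early. Their median log2 fold change was 1.22 late, with 11 of 14 above 0, and -0.84 early, with 6 of 14 above 0. None of the 14 was called in either direction at either stage, and none was at 0 in every library of a group. Gm33190, which overlaps Ano5 in the reference, stood at 1.05 CPM in late mutants and 2.47 in late wild type. Whether reads were counted by strand is not stated in the labels or headers, so reads of overlapping genes cannot be assigned with certainty. The plot of CPM by library shows Ano1 and Ano5 beside the other members.

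**Figure D2:**
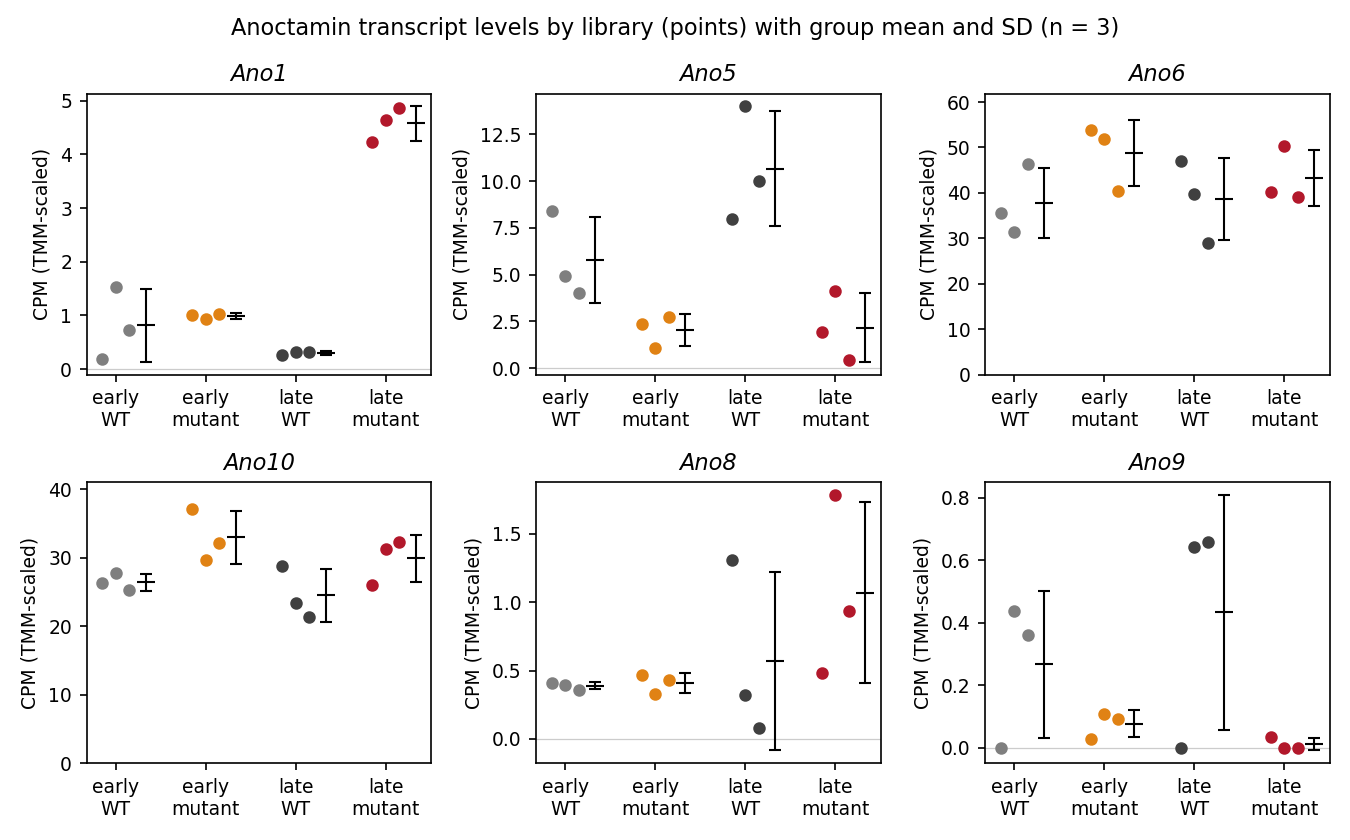
CPM after TMM scaling of each of the 6 members, 1 panel a gene with its own axis, by group; points are the 3 libraries of a group and bars the mean ± SD. Ano1 lies at 4.23 to 4.86 CPM in late mutants and at or below 1.54 in all other libraries, Ano5 is lower in mutants at both stages without overlap, and Ano6 overlaps between genotypes at both stages.

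Ano6, the calcium-activated scramblase that exposes phosphatidylserine on the cell surface, was the member with the most reads. It stood at 53.8, 52.0 and 40.5 CPM in early mutants and at 35.6, 31.4 and 46.4 in early wild type. Late, it stood at 40.2, 50.4 and 39.1 CPM in mutants and at 47.0, 39.8 and 29.1 in wild type. The genotypes overlapped at both stages. The log2 fold change was 0.37 ± 0.26 early (adjusted p = 0.653, with 2 SE running from -0.16 to 0.89) and 0.16 ± 0.26 late. The late value ran from 0.00 without late wild-type replicate 3 to 0.46 without late wild-type replicate 1.

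Ano10 stood at 37.2, 29.6 and 32.1 CPM in early mutants and at 26.3, 27.7 and 25.3 in early wild type. The early groups did not overlap, by a narrow margin. The early log2 fold change was 0.32 ± 0.24 (adjusted p = 0.662, with 2 SE running from -0.16 to 0.80). Late, Ano10 stood at 26.0, 31.3 and 32.3 CPM in mutants and at 28.8, 23.3 and 21.3 in wild type, which overlapped, with a log2 fold change of 0.29 ± 0.24. Over the stages, log2 differences of Ano6 and Ano10 lay between -0.17 and 0.03 (adjusted p from 0.960 to 1.00).

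Ano8 encodes a protein that tethers the endoplasmic reticulum to the plasma membrane, and it was near the limit of what these libraries count. It stood at 0.464, 0.328 and 0.433 CPM in early mutants and at 0.412, 0.396 and 0.361 in early wild type, with a log2 fold change of 0.07 ± 0.96 (adjusted p = 0.982). Late mutants held 0.481, 1.78 and 0.939 CPM, from 14, 60 and 29 counts, and late wild type 1.31, 0.321 and 0.0777 CPM, from 40, 8 and 2 counts. The late groups overlapped, with a log2 fold change of 0.89 ± 0.94. That value was 0.34 without late mutant replicate 2 and 2.53 without late wild-type replicate 1. In mutants Ano8 was higher late than early without overlap (log2 fold change 1.38 ± 0.95, adjusted p = 0.820). Dda1, which overlaps Ano8 in the reference, was far more abundant, at group means of 77.8 to 107 CPM.

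Ano9, an epithelial member of the family, was close to the floor in every group. Its counts in replicates 1, 2 and 3 were 1, 4 and 3 in early mutants, 0, 10 and 14 in early wild type, 1, 0 and 0 in late mutants and 0, 16 and 17 in late wild type. At each stage replicate 1 of wild type had no read and overlapped the mutants, and replicates 2 and 3 carried all the wild-type reads. The early log2 fold change was -1.75 ± 1.58. Ano9 passed the low-count filter on its wild-type libraries, so no p is given for it. Late, the 33 counts of wild type against 1 of the mutants give a ratio of 38.1 after library scaling, with a 95% exact interval of 6.37 to 1548 that covers counting error only. Corneal epithelial markers summed to 71.1 to 198 CPM in late mutants and 52.6 to 390 in late wild type, with 0 of 13 called and none at 0 in every library of a group.

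Read against all genes, the members' early values gave no call. By edgeR's quasi-likelihood test at an adjusted p of 0.05, 0 of the 6 members were called early, where 0.59% of 17965 genes tested were. DESeq2 and limma-voom also called 0, and 1 member, Ano5, had an unadjusted p under 0.05 by each of the 3 tools. By edgeR 1575 of the 17965 genes had one. Ano5 and Ano10 did not overlap between genotypes early, 2 of 6 members, where 21.9% of all genes did not. Late, 2 of 6 members were called, Ano1 higher and Ano5 lower, beside 5.47% of all genes, of which 2.77% were higher and 2.71% lower, and the same 2 did not overlap, beside 25.9%. The members were picked with the late values known, so nothing is read from the late counts. The median log2 fold change of the 6 was 0.18 early and 0.22 late, beside -0.11 and 0.00 over all genes tested, with 4 of 6 above 0 at each stage.

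In the difference between the late and early genotype effects 0 of 6 members were called, beside 0.00557% of all genes. This difference holds the late values used in the choice of members, so nothing is read from that count. Between stages 0 of 6 were called in wild type and 0 in mutants, where 0.0% of all genes were called in either, with 724 and 1174 genes at an unadjusted p under 0.05. Both stage comparisons use late libraries that the choice of members used, so nothing is read from the members' counts in them. Mutant libraries did not overlap between stages for 2 of 6 members, Ano1 and Ano8, beside 19.3% of all genes, and wild-type libraries for 0 of 6, beside 4.73%. The plot of log2 fold changes sets the early and late genotype differences side by side.

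**Figure D3:**
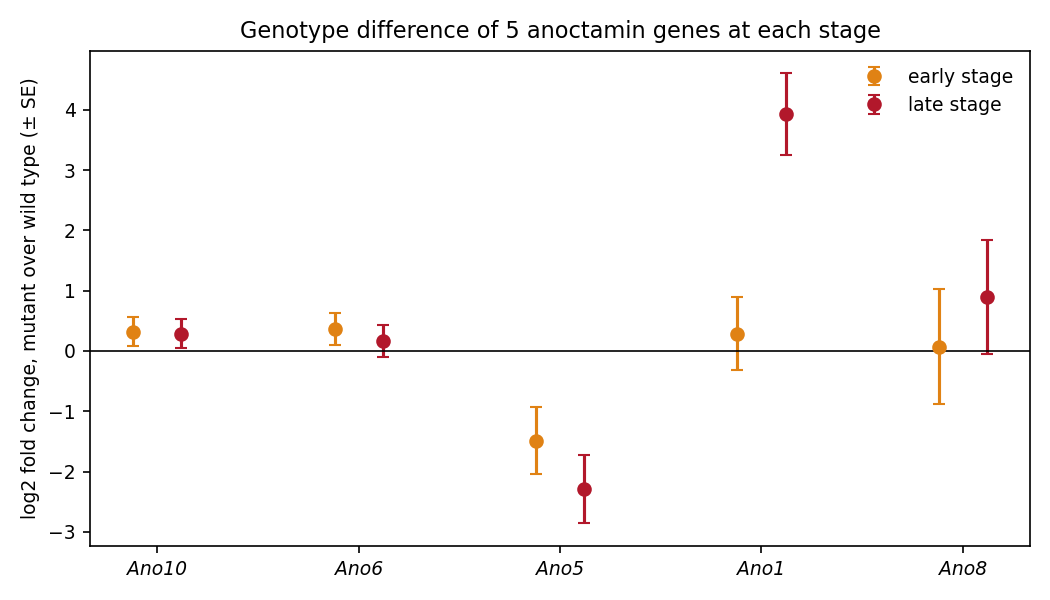
Log2 fold change of mutant over wild type, with SE, for 5 members at the early and the late stage; Ano9 is left out because its late mutants hold 1 count. Ano1 lies at 0.28 early and 3.93 late, Ano5 at -1.49 and -2.29, and Ano6 and Ano10 between 0.16 and 0.37.

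The authors' deposited table gave the same directions for the values listed here. Its late log2 fold changes were 3.86 for Ano1, -2.41 for Ano5, 0.85 for Ano8, 0.09 for Ano6 and 0.21 for Ano10. Its early ones were 0.25 for Ano1, 0.32 for Ano6 and 0.28 for Ano10. The plot of late values by alternative shows how far each member moved with the processing.

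**Figure D4:**
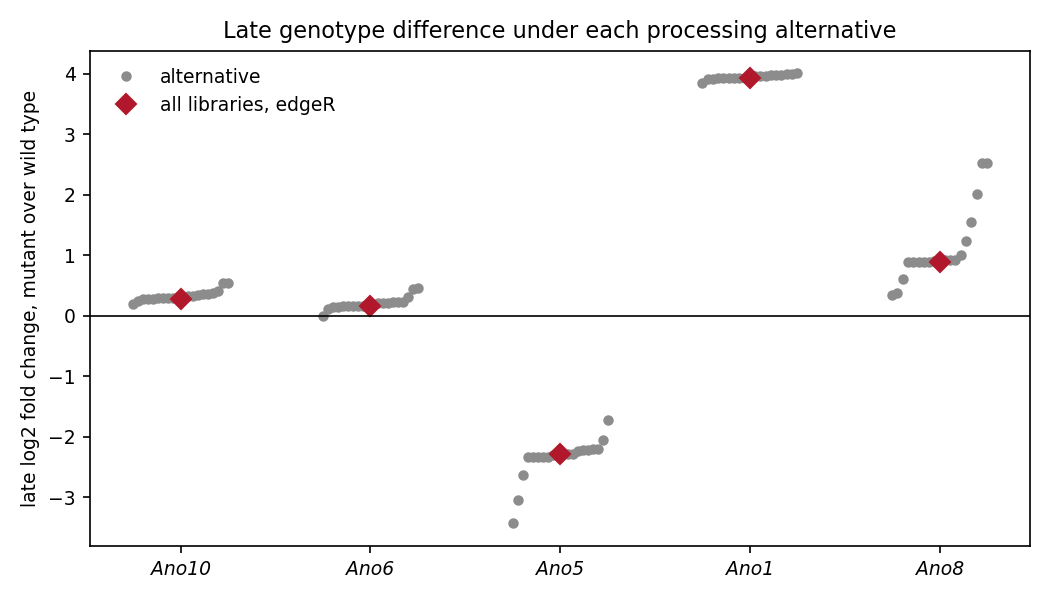
Late log2 fold change of mutant over wild type for 5 members; the diamond is the fit of all 12 libraries by edgeR and each grey point is 1 alternative of processing or of left-out libraries, sorted within a gene. Ano1 stays between 3.85 and 4.01, Ano5 runs from -3.43 to -1.71 and Ano8 from 0.34 to 2.53.

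Of the other anoctamins, Ano7 was not called early or late. Ano7, known from prostate epithelium, had group means of 0.205 to 0.574 FPKM and was above Ano8 in 11, above Ano9 in 12 and above Ano1 in 9 of 12 libraries. Its late counts were 91, 83 and 37 in mutants and 18, 27 and 28 in wild type, with a log2 fold change of 1.30 ± 0.63 (adjusted p = 0.187). Ano3, linked in people to a dystonia, had 13, 28 and 20 counts in late mutants and 0, 0 and 7 in late wild type (log2 fold change 2.79 ± 1.53). Ano3 passed the low-count filter on its late mutant libraries, so no p is given for it.

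Ano4 had no read in late mutants and 0, 35 and 25 counts in late wild type. With a floor of 3 counts set in place of none for the mutant group, pooled Ano4 counts were 23.1-fold higher in late wild type. This is a bound and not an estimate of the fold. That value leaves out the spread between libraries, and replicate 1 of wild type held no read. Ano4 passed the low-count filter on its wild-type libraries, against 4 counts in all early mutants together, so no p is given for it. Ano2, the chloride channel of olfactory neurons and photoreceptors, had 22, 1 and 1 counts in late mutants and 1, 0 and 0 in late wild type, a ratio of 20.8 with a 95% exact interval of 3.39 to 856 for counting error. Nearly all of its late reads came from 1 library.

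Related genes of chloride transport, lipid scrambling, calcium handling, membrane repair and membrane contact sites were read from 8 lists of 142 genes, 120 of them tested. Early, 0 of the 120 were called by edgeR, DESeq2 or limma-voom, where edgeR called 0.59% of all genes. By edgeR 9 of the 120 had an unadjusted p under 0.05, beside 1575 of the 17965 genes tested. The median log2 fold change of the 120 was -0.04, beside -0.11 over all genes. Late, edgeR called 1 of the 120 higher and 2 lower, with a median of 0.31, where 5.47% of all genes were called. The late count was 6 higher and 5 lower by DESeq2, which called 2478 of the 17965 genes tested. With replicate 2 of early wild type and replicate 1 of late wild type left out together, 22 of 119 were higher and 6 lower. There 4371 of all 18335 genes tested were called.

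Ttyh2, a tweety family member described as a chloride channel, was 3.14-fold higher in late mutants, at 8.73 ± 1.33 CPM (SD, n = 3) against 2.78 ± 0.454 (log2 fold change 1.65 ± 0.37, adjusted p = 0.0168 by edgeR), a call that held in 18 of 20 alternatives and not without late mutant replicate 1 (1.57) or late wild-type replicate 2 (1.53). Stim2, a calcium sensor of the endoplasmic reticulum that opens store-operated entry, was 3.87-fold lower, at 5.04 ± 0.530 against 19.5 ± 10.7 CPM (log2 fold change -1.95 ± 0.42, adjusted p = 0.0133), called in 16 of 20. The Stim2 call was lost without late mutant replicate 1 (-1.97) or 3 (-1.75) and without late wild-type replicate 2 (-1.62) or 3 (-1.78). Atp8b5, a flippase subunit gene that moves phospholipids inward, was 2.46-fold lower, at 3.58 ± 1.45 against 8.82 ± 1.91 CPM (log2 fold change -1.30 ± 0.37, adjusted p = 0.0447), called in 6 of 20. Most single libraries left out ended the Atp8b5 call, with log2 fold changes from -1.53 to -0.92 over the libraries left out. In none of the 3 did the late groups overlap, beside 25.9% of all genes that did not overlap late. The gene lists were chosen with earlier results of these data known, and these 3 were their only late calls by edgeR. Their adjusted p-values are therefore descriptions.

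By list, the late values were as follows in each family of roles. Of 26 other chloride channel genes tested, 1 was called higher, 17 lay above 0 and the median log2 fold change was 0.16. Of 7 cation-chloride cotransporters 0 were called and the median was 0.39. Among the other phospholipid scramblases 0 of 13 were called, 11 lay above 0 and the median was 0.63. Among flippases 1 of 14 was called lower and the median was 0.28. Of 18 genes of calcium stores, entry and export 1 was called lower, with a median of 0.05. Of 17 membrane repair genes 0 were called, 15 lay above 0 and the median was 0.47. Of 17 contact site genes 0 were called, with a median of 0.01, and of 8 TMEM63 and TMC relatives 0 were called, with a median of 0.13. All genes tested had a late median of 0.00, and 5.47% of them were called higher or lower.

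The genes most like each member across the 12 libraries were found by Pearson correlation of log2 CPM among genes with a mean of at least 5 CPM. The 12 points share genotype, stage and library effects, so the values are descriptions. For Ano1 they were Uck2 (r = 0.926, Spearman's rho = 0.881), Sbno2 (0.900 and 0.909) and Car12 (0.896 and 0.811), the last a carbonic anhydrase on the list of corneal endothelial markers, whose late median of -0.45 lay on the other side of 0. For Ano5 they were Pan3 (r = 0.952, rho = 0.958), Pdp2 (0.926 and 0.937) and Pak6 (0.924 and 0.860). For Ano6 they were Arhgap29, Fgfr1 and Ppm1l (r from 0.883 to 0.890), and for Ano10 Aebp1, Mgrn1 and Gga2 (r from 0.930 to 0.939). For Ano8 they were Clcn7, Mark2 and Atg9a (r from 0.918 to 0.939), and for Ano9 Mtrf1l, Fhit and Magohb (r from 0.905 to 0.931), where few reads of the member lie behind each point. Ranked by Spearman's rho, only Sbno2 stayed among the first 3 for Ano1, Pan3 for Ano5, Ppm1l for Ano6 and Atg9a for Ano8. None of the named genes stayed for Ano9 or Ano10, so the names depend on the coefficient.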

How the data were processed

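RNA of corneal endothelium was extracted with TRIzol and sequenced as paired-end reads from directional libraries, per the labels' protocols. GRCm39, HISAT2, HTSeq, fastp and DESeq2 are named in the submitters' processing notes, without versions. The annotation and the strand setting were not given in the sources used. The authors deposited counts of reads as whole numbers for each gene, FPKM values, and tables of their own comparisons that hold log2 fold changes and q-values, per the file headers. All 12 count columns matched a sample label.

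Counts were scaled by TMM, filtered with filterByExpr on the 4 groups (14796 genes removed, 17965 tested) and fitted with edgeR 4.0.16 (R 4.3.3, glmQLFit robust, quasi-likelihood F test) in 1 fit with 8 residual degrees of freedom. The common biological coefficient of variation was 0.464. P-values were adjusted by Benjamini-Hochberg over all genes tested, with a threshold of 0.05. SEs were derived from the F statistic. FPKM was used only for levels between genes. DESeq2 1.42.0 and limma 3.58.1 served as alternatives, beside other size factors and filters, the compared libraries alone, a replicate block and each library left out; leaving out replicate 2 of early wild type together with replicate 1 of late wild type was chosen after seeing the data. The fit was tested on simulated data, with changes set only in genes with a mean of at least 5 CPM. That test therefore does not cover Ano1, Ano8 or Ano9. The labels call the 3 libraries of a group biological replicates.

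Members and gene lists were chosen with earlier results of these data known. Named were all 10 anoctamins, up to 4 called genes a list with the smallest adjusted p, and for each member the 3 most correlated genes with a mean of at least 5 CPM, clone and model names excepted. Dda1, D930030F02Rik and Gm33190 were named because they overlap a member in the reference annotation.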

Additional observations from a re-analysis of the deposited data

How the results depend on the processing

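Over the alternatives, members kept their direction in 113 of 115 early and 116 of 116 late values. The exceptions were early values that turned sign when 1 library was left out. Nothing is read from the late count, since the members were picked with the late values known. That count includes Ano6 at 0.0007 without late wild-type replicate 3. Ano1 early ran from -0.16 without early wild-type replicate 1 to 1.09 without early wild-type replicate 2, and Ano8 early from -0.020 without early mutant replicate 1 to 0.25 without early mutant replicate 2. Among the other anoctamins, Ano7 early (0.22) ran from -0.046 to 0.92 without early wild-type replicates 3 and 2. Ano3 early (-0.36) ran from -0.96 to 0.96 in the same way, and was 0.64 by limma-voom, 0.26 with the replicate block and 0.97 with replicate 2 of early and replicate 1 of late wild type left out. No member was called early in any alternative. Late, 2 members were called, 1 with a filter of 5 CPM in 3 libraries, which removed Ano1, and 1 to 2 when single libraries were left out. The late call of Ano5 was lost without late mutant replicate 1 (-2.22) or 3 (-1.71) and without late wild-type replicate 2 (-2.05) or 3 (-2.33). With replicate 2 of early wild type and replicate 1 of late wild type both left out 3 were called, Ano9 being added. Late wild-type replicate 1 held no read of Ano9, and Ano9 passed the low-count filter on its wild-type libraries. Nothing is therefore read from that call. Of all genes, 106 were called early, 361 with no filter, 237 by DESeq2 and 51 to 179 with single libraries left out (51 without early mutant replicate 1). Late, 983 were called, 1507 with no filter, 2478 by DESeq2, 1744 by limma-voom, 489 with the compared libraries alone, 4371 without the 2 libraries named above, and 229 to 3909 with single libraries left out, 3909 without late wild-type replicate 1. Deviations from the group means correlated at -0.09 to 0.08 between replicates of the same number. These values gave no sign that the numbers pair samples, but they cannot settle how the samples were collected. A replicate block gave 456 late calls, 2 of them members. The cause of these shifts was not tested. Counts of Ano8, Ano9 and Ano4 are too few to give a firm fold.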

Other observations

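Late wild-type replicate 1 held no read of Ano9 or Ano4, while replicates 2 and 3 held 16 and 17 counts of Ano9 and 35 and 25 of Ano4. The same library held 40 counts of Ano8, against 8 and 2 in replicates 2 and 3. Its total of 27862984 counts was close to the 28819891 and 27723176 of replicates 2 and 3. These values were picked out after they were seen.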
